A study of Mus musculus and Homo sapiens with 6 samples.

Results

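Rab GTPases were examined for open chromatin in NMuMG cells, an epithelial line from mouse mammary gland. Members were chosen by symbol, as protein-coding mouse genes named Rab with a number and at most 1 letter, so that 59 of 21896 protein-coding genes were included and the names of Rab-binding proteins (such as Rab3gap1, Rab3ip, Rab11fip1 and Rab5if) were left out. The rule reads symbols only. ATAC-seq, in which the Tn5 transposase cuts and tags accessible DNA, was run on 25000, 50000, 75000 and 100000 cells, with 1 library at each number. All 4 libraries carry the genotype label NMuMG, a time label of 0h and a passage number below 10, and no treatment separates them. The series also holds 2 samples from a human breast cancer line, MDA-MB-231, not analysed here.

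Each library is a list of peaks with a whole-number score from the authors' peak caller, and no list holds a score under 8. Read depth is unknown. A gene without a listed peak may therefore have signal below that level, and a score places a peak within its own list and is not a level to compare between cell numbers. Because each cell number has 1 library, no spread between replicates can be given and cell numbers were not tested against each other. A gene is called open below where it has a listed peak. Of 10 epithelial marker genes, 7 had a peak in or within 1 kb of the gene in all 4 libraries, among them Cdh1, Krt8 and Jup, while Epcam, Cldn3 and Esrp1 had none. Of 5 blood cell markers, none had a peak in all 4 libraries and Ptprc had no listed peak in any. Markers of other tissues were not all without peaks: in all 4 libraries, Cdh5 had one (47, 54, 50 and 57) of 5 endothelial markers, Apoa1 (27, 22, 35 and 30) and Alb (20, 20, 11 and 17) of 5 liver and muscle markers, and Rbfox3, Snap25 and Syt1 of 5 neuron markers. Over all protein-coding genes the share with such a peak was 54.5%.

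Rab proteins are small GTPases that sit on the membranes of the secretory and endocytic pathways. They switch between a GDP-bound form in the cytosol and a GTP-bound form on a membrane, where they recruit the tethers, motors and coats that carry vesicles to their targets. Exchange factors turn them on, GTPase-activating proteins turn them off, and an escort protein and a prenyl transferase attach the lipid that anchors them. In polarised epithelial cells they also separate delivery to the apical and basolateral surfaces.

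Most Rab genes were open in every library. A peak in the gene or within 1 kb of it was found in all 4 libraries for 48 of 59 Rab genes (81.4%), compared with 54.5% of all protein-coding genes. A further 6 (10.2%, against 9.72%) had one in 1 to 3 libraries, and Rab9b, Rab19, Rab32, Rab39b and Rab42 had none in any, which is 8.47% of the Rab genes against 35.8% of all protein-coding genes. With peaks under the median score of their list dropped, 10 Rab genes (16.9%) had none, against 44.4% of all protein-coding genes. By library, with all peaks and from 25000 to 100000 cells, 51, 52, 49 and 51 Rab genes had such a peak, against 58.0%, 60.1%, 59.3% and 60.7% of all protein-coding genes. The median length of the Rab genes was 23213 bp and that of all protein-coding genes 17149 bp, and a longer gene has more room for a peak. The part of gene length in the difference was not tested.

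Peaks were also counted within 1 kb of gene ends, where the windows of both ends overlap in the shortest genes. The shortest protein-coding gene spans 144 bp and the shortest Rab gene 2758 bp. Peaks near starts were counted too, and the 8 Rab genes with several annotated starts had more than 1 window there. A peak within 1 kb of an annotated end was found in all 4 libraries for 40 Rab genes (67.8%) against 43.9% of protein-coding genes, and for 6 more in 1 to 3 libraries (10.2%, against 8.78%). By library the counts were 41, 45, 43 and 43, against 46.9%, 48.9%, 48.4% and 49.5%. The annotated start was known for 48 Rab genes, and 32 of them (66.7%) had a peak within 1 kb of it in all 4 libraries, against 45.9% of 17491 protein-coding genes with a known start. Another 4 (8.33%, against 7.19%) had a start peak in 1 to 3 libraries and 12 in none, against 46.9% in none over all such genes. By library 32, 36, 34 and 34 Rab genes had a start peak, against 48.3%, 50.1%, 49.8% and 50.8%. Rab3b, Rab3c and Rab33a were open in all 4 libraries without any start peak (6.25% of 48, against 6.44%). For the other 11 members (Rab2a, Rab4a, Rab7b, Rab18, Rab26, Rab27b, Rab30, Rab36, Rab37, Rab38 and Rab44) the start was not in the table used, and only their ends and bodies are described.

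The sequence just upstream of the start is shown for 4 genes. Rab40c and Rab5b are among the 3 Rab genes with the highest mean score percentile. Rab11b and Rab25 are close relatives of which Rab11b had a start peak in every library and Rab25 had none in any; this pair was chosen after its values were seen. The letters are the 250 bases before the annotated start, read 5′ to 3′ on the strand of the gene, from RefSeq in build GRCm38.p6. They lie at chr17:25919715-25919964 (minus strand), chr10:128696269-128696518 (minus strand), chr17:33760487-33760736 (minus strand) and chr3:88548280-88548529 (minus strand). Capitals mark CpG dinucleotides, the sites of DNA methylation in mammals.
Rab40c: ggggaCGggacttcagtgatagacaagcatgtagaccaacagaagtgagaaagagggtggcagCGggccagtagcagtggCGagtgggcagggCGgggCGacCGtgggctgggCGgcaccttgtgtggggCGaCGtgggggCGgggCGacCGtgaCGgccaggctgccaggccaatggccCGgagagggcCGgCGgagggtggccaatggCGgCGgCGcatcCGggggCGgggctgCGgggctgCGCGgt
Rab5b: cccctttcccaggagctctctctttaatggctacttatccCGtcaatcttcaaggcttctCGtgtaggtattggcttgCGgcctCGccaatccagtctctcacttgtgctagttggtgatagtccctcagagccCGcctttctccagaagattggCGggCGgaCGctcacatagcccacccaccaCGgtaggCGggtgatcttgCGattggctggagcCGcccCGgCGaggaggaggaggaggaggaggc
Rab11b: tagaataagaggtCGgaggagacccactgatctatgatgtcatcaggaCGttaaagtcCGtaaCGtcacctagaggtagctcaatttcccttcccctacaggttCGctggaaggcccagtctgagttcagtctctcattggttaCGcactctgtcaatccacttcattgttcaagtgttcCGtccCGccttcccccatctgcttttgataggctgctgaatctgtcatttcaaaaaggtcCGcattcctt
Rab25: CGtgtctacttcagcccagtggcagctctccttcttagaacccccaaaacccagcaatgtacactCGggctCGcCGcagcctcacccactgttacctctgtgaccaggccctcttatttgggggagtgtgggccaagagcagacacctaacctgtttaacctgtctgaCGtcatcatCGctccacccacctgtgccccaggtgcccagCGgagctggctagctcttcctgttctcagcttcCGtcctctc
These stretches held 24 CpG in Rab40c, 14 in Rab5b, 9 in Rab11b and 8 in Rab25. Peaks lay over the stretch in 4 libraries for Rab40c, 4 for Rab5b, 4 for Rab11b and 0 for Rab25. In the 300 bases that add the 50 after the start, Rab11b held 12 CpG and Rab25 held 9.

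All 9 genes assigned to the early endosome had a peak in or near the gene in all 4 libraries. The share of all protein-coding genes with such a peak, 54.5%, is the one to set beside this and each later compartment count. Rab5a, Rab5b and Rab5c encode the isoforms of the GTPase that drives fusion of incoming vesicles with early endosomes. The Rab5b start scored 101, 147, 120 and 140 from 25000 to 100000 cells. Rab5a scored 97, 95, 93 and 102 at its start, and Rab5c scored 75, 107, 66 and 98. The 3 isoforms thus had start peaks in every library, each with a mean score percentile of 98.2 or above within the lists. Rab4b, which acts in rapid return of receptors to the surface, scored 50, 62, 82 and 83, and its relative Rab4a scored 16, 27, 26 and 28 at its lower end (the annotated end with the smaller coordinate, used where the start is not known), below Rab4b in each list.

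Rab22a, Rab21, Rab31 and Rab20 had lower start scores than Rab4b in every list. Rab22a, which acts between endosomes and recycling tubules, scored 23, 34, 32 and 31, at a peak nearest to an end of Ppp4r1l-ps. The start of Rab21, a regulator of integrin traffic, scored 24, 35, 28 and 32. The Rab21 start lies inside the outermost annotated extent of the gene, so that this peak was not counted at a gene end. Rab31, a relative of Rab22a, had start peaks of 11, 19 and 17 from 50000 cells up and none at 25000 cells. Its highest peak lay inside the gene, 34976.5 bp from the start, with scores of 51, 57, 47 and 53. The best peak within 1 kb of the Rab20 start scored 9, 10, 17 and 10. At 25000 cells that peak was centred 739.5 bp into the gene, near the start of the neighbour E230013L22Rik, and in the other 3 libraries it lay at most 89.5 bp from the Rab20 start.

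Of 7 recycling endosome genes, 4 had a start peak in all 4 libraries and 3 had none in any, shares near the 45.9% and 46.9% of all protein-coding starts. Rab11b, one of the GTPases that define the recycling endosome, scored 81, 127, 131 and 147 at its start, and its isoform Rab11a scored 35, 32, 16 and 30. Rab14, which acts between the Golgi and endosomes, scored 45, 61, 42 and 63. Rab35, which returns cargo from endosomes to the plasma membrane, scored 12, 32, 24 and 32, at a peak nearest to an end of 1110006O24Rik.

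The 3 recycling genes without a start peak included both members known for their epithelial expression. Rab25, the epithelial relative of Rab11a, had a single peak of 10 inside the gene at 25000 cells and none in the other 3 libraries. Rab17, which acts in transcytosis and apical recycling, had peaks of 8, 12 and 9 inside the gene at 25000, 50000 and 100000 cells. At 100000 cells it also had a peak of 18 beyond its far end. This peak overlapped a listed peak in each other library, but those peaks lay outside the 1 kb window. At 75000 cells Rab17 had no listed peak in or within 1 kb of the gene. Rab15 had a single peak of 11 inside the gene, at 75000 cells. Apart from the peak beyond the end of Rab17, these scores were between 8 and 12, and RNA of these genes was not measured.

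Late endosome, lysosome and autophagy genes were open with middling scores at their starts. Of 8 genes, 7 had a peak in all 4 libraries. Rab7, which controls late endosome and lysosome fusion, scored 19, 28, 41 and 26 at its start, and Rab9, which returns receptors from late endosomes to the Golgi, scored 19, 33, 32 and 29. Rab34 scored 27, 21, 30 and 37, and Rab24, linked to autophagy, scored 31, 31, 23 and 27. Rab9b, the X-linked relative of Rab9, had no listed peak. Rab36 scored 11, 20, 14 and 25 at its lower end.

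In Rab12 and Rab7b the highest peak was inside the gene. Rab12 scored 10, 13, 22 and 23 at its start but 37, 46, 72 and 71 at a region centred 9294.5 bp into the gene. Rab7b, a relative of Rab7 that acts between endosomes and the Golgi, scored 11, 16 and 9 at its lower end in the libraries from 25000 to 75000 cells and had no peak there at 100000 cells. A region inside Rab7b scored 42, 51, 50 and 71 in the same order. In both genes the inner region outscored the boundary peak in every library that had a boundary peak. The start of Rab7b is not known here, so a start peak within the gene would count as inside.

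Of 14 genes of the ER and Golgi, 10 were open in all 4 libraries. Rab1a, which directs ER-to-Golgi transport, scored 74, 104, 97 and 97 at its start, and Rab1b scored 39, 84, 51 and 64. Rab33b, a Golgi GTPase, scored 73, 94, 76 and 86 at its start. Rab18, found on the ER and on lipid droplets, scored 62, 87, 80 and 69 at its lower end, and the Golgi gene Rab30 scored 79, 89, 97 and 77 at its lower end, at a peak nearest to an end of Rab30 at 25000 and 50000 cells and to one of 4632427E13Rik at 75000 and 100000 cells. These genes had mean score percentiles from 93.3 for Rab1b to 98.8 for Rab1a. Rab2b (39, 53, 44 and 41) and Rab43 (17, 42, 31 and 32) had start peaks in every library, and Rab2a scored 10, 14, 20 and 21 at its lower end.

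Relatives differed within the Rab6, Rab33 and Rab39 names. Rab6a, the widely expressed Golgi isoform, scored 43, 46, 47 and 64 at its start. Rab6b, known as the neuronal isoform, had a peak of 8 near its start at 50000 cells, a peak of 9 inside the gene at 100000 cells, and none in the other libraries. Rab39 had peaks of 8, 8 and 9 inside the gene at 25000, 50000 and 100000 cells, and neither Rab39b nor Rab19 had any. Rab33a had peaks of 35, 39, 37 and 48 at its lower annotated end, nearest to an end of the neighbour Aifm1 and over 5 kb from the listed Rab33a start, which had none.

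All 12 genes of exocytosis and polarised delivery had a peak in or near the gene in every library, but not all at the start. Rab8a, which carries cargo to the basolateral surface and the cilium, scored 111, 157, 142 and 127 at its start, and Rab8b scored 30, 37, 45 and 36. Rab10, which acts in basolateral sorting, scored 53, 72, 57 and 64. Rab13, a GTPase of tight junction assembly, scored 35, 35, 28 and 40, at a peak centred between -139.5 and -64.5 bp from the start (negative is upstream) and nearest to the ribosomal protein gene Rps27 on the other strand. The order Rab8a, Rab10, Rab8b held in each list.

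The Rab3 and Rab27 genes, which act in regulated secretion, differed among themselves. Rab3a, best known from synaptic vesicles, scored 86, 87, 63 and 94 at its start. Rab3d, found on secretory granules of exocrine cells, scored 42, 62, 55 and 55. Rab3b and Rab3c had no start peak in any library, and their highest inner peaks scored 21, 24, 18 and 19 for Rab3b and 15, 19, 18 and 16 for Rab3c. Rab3a and Rab3d scored above Rab3b and Rab3c in every list. Rab27a had low peaks of 16, 13 and 11 near a start from 50000 cells up and a peak of 11 inside the gene at 25000 cells.

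The highest peaks of Rab26 and Rab37 lay outside the gene. The Rab26 peak scored 92, 120, 92 and 140 but lay beyond the gene and nearest to an end of its neighbour Traf7. With peaks outside the gene and nearer to another gene left out, Rab26 had no peak in any library and 47 of 59 Rab genes kept one in all 4. The highest Rab37 peak (43, 88, 73 and 83) likewise lay outside, nearest to Slc9a3r1, and the region inside Rab37 shared by all libraries scored 9, 11, 11 and 15, so that Rab37 was also open by its inside peaks.

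Rab40c, which carries a SOCS box and joins a ubiquitin ligase, had the highest score of all Rab genes in each of the 4 lists, at 157, 163, 146 and 156. Rab40b had a single peak of 12 near its start, at 50000 cells. Of the genes of lysosome-related organelles such as melanosomes, Rab38 scored 30, 44, 35 and 37 at its lower end. A region inside Rab38 scored 30, 45, 49 and 33. Rab29 scored 23, 41, 33 and 22 at its start, while Rab32 had no listed peak. The cilium genes Rab23, an inhibitor of Hedgehog signalling, and Rab28 scored 9, 27, 17 and 19 and 12, 24, 16 and 21 at their starts. A region inside Rab23 scored higher than its start in every library, at 20, 42, 40 and 27. Rab44, a large Rab with further domains, had a region inside the gene at 29, 27, 23 and 29, and Rab42 had none.

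**Figure D1:**
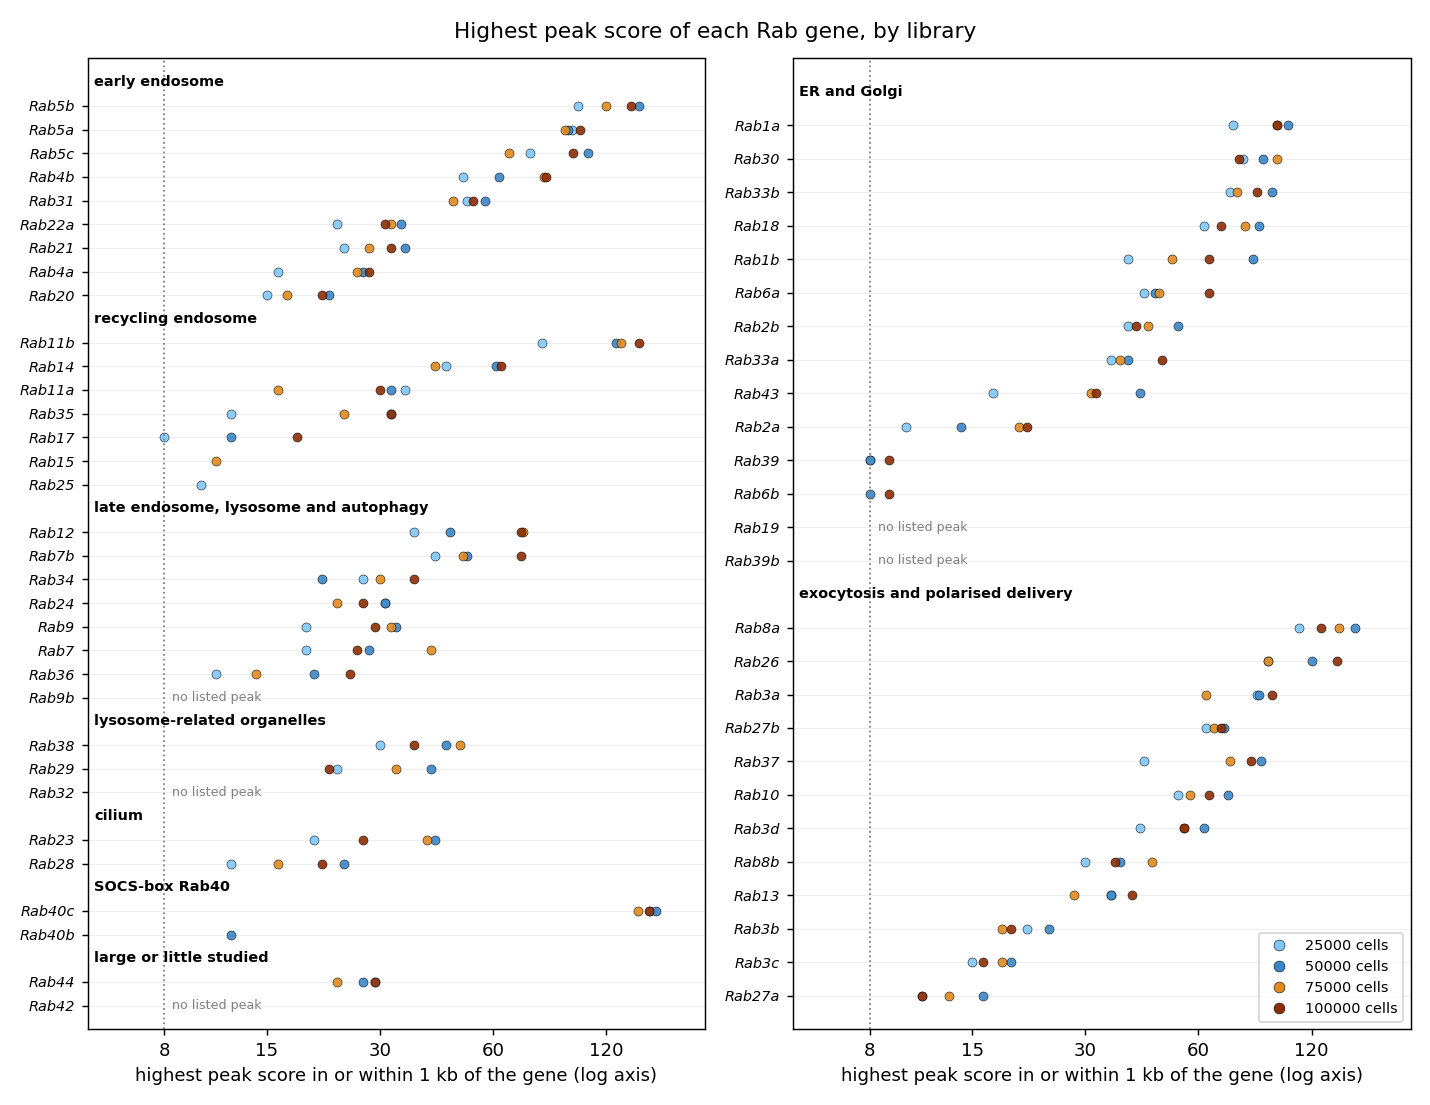
Highest peak score in or within 1 kb of each Rab gene, on a log axis, with 1 point per library and genes grouped by compartment. The dotted line is the lowest listed score of 8; Rab40c, Rab8a and Rab5b lie at the right, and 5 genes have no listed peak.

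Among subfamilies that share a number, 10 of 14 had a peak in or near every gene in all 4 libraries, a count for which no share over other families was computed. The 4 others were Rab6, Rab9, Rab39 and Rab40. In Rab6, Rab9 and Rab40 one gene was open in all 4 libraries and the other in 2, 0 and 1 of them. Across the family, 19 Rab genes (32.2%) had a highest peak at or above the 90th percentile of its list in every library, against 10.6% of all protein-coding genes. For 3 Rab genes, or 5.08% against 0.941%, this held at the 99th percentile. The 19 include Rab26 and Rab37, whose highest peaks lay outside the gene and nearest to another gene. Over the 48 Rab genes open in all libraries, the median highest score was 36, 45.5, 44.5 and 44.5 from 25000 to 100000 cells, against 28, 36, 33 and 37 over the 11935 protein-coding genes open in all libraries.

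Start peaks were mostly centred close to the start. The centre of the best one lay within 250 bp of the nearest start for 26 of 32 genes at 25000 cells, 32 of 36 at 50000, 29 of 34 at 75000 and 30 of 34 at 100000. Relative to the start, with negative values upstream, the median centre lay at -24.5, -18, -66 and -43 bp in the same order. These distances were not computed over all protein-coding genes, so they cannot be called particular to Rab genes. The Rab40c peak had its centre 386.5, 436.5, 411.5 and 361.5 bp from the start, on the upstream side. An opposite-strand start of another gene lay within 1 kb of a start of 9 of the 48 Rab genes, including Rps27 at Rab13, Prelid1 at Rab24, Tox4 at Rab2b and Mrpl48 at Rab6a. The share of all protein-coding genes with such a neighbour was not computed, so the count cannot be read as high or low. Which of the paired genes a peak at such a place belongs to cannot be told from the lists.

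**Figure D2:**
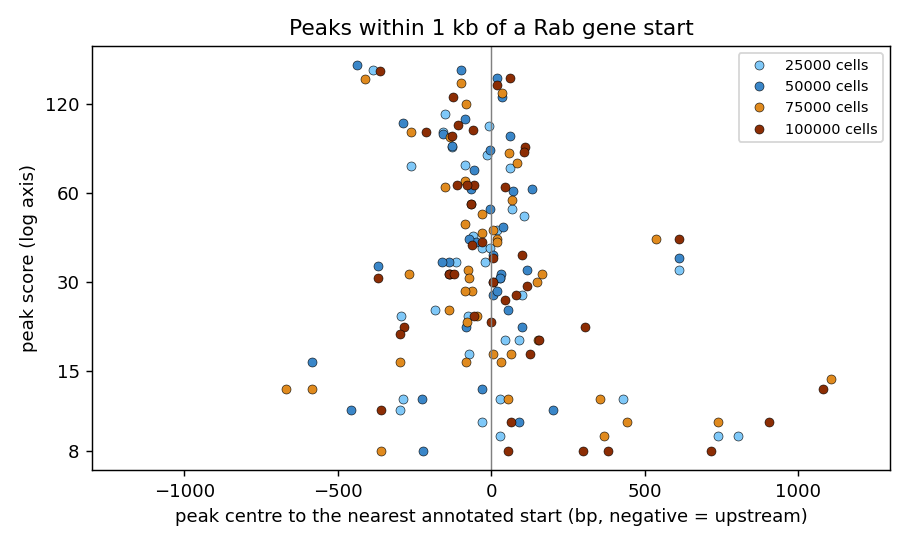
Score (log axis) of each peak within 1 kb of a Rab gene start against the distance of its centre from the nearest annotated start, with negative values upstream and colours for the libraries. High scores gather near 0, and the points at the upper left near 400 bp upstream are the Rab40c peaks.

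Merging the peaks of all libraries that lay in or within 1 kb of a Rab gene gave 123 regions for 54 Rab genes. Of 40 regions near a start, 31 had a peak in all 4 libraries, compared with 10 of 17 at outer ends and 31 of 66 inside genes. The same counts of regions were not made over all protein-coding genes. For members without a known start, a peak at the start would count as outer end or inside. The 27 regions with a counted peak in a single library scored 8 to 18. Peaks beyond the 1 kb window were not counted. The region of 18, beyond the end of Rab17, overlapped listed peaks in all 3 other libraries. The median score of start peaks was 34, 36, 31.5 and 32 in the 4 lists and that of inside peaks 13, 15, 16 and 16. Over all protein-coding genes, peaks near a start had medians of 21, 26, 24 and 27. Peaks in or near those genes but not near a start had medians of 14, 15, 14 and 15, so the same contrast held there. Sharing of start and inside peaks of the same score was not compared.

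Rab27b and Rab31 held the most inside regions found in all 4 libraries. Rab27b, a secretory GTPase gene on chromosome 18, had no peak near either end but 5 regions inside the gene in all 4 libraries. The 2 highest scored 46, 64, 66 and 63 and 63, 70, 47 and 69. Rab31 also had 5 inside regions in all 4 libraries, and Rab30 had 3, of which the highest scored 66, 61, 63 and 57. Rab11b had 2, at 32, 40, 19 and 22 and at 63, 61, 46 and 43. By contrast, 19 of the 66 inside regions were found in 1 library only. Rab27b, Rab31 and Rab30 span 162503, 121027 and 102899 bp, against a Rab median of 23213 bp, and the part of length was not tested. Rab3c, at 226810 bp, had 2 such regions in all 4 libraries. The starts of Rab27b and Rab30 are not known here, so a start peak within either gene would count as inside.

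**Figure D3:**
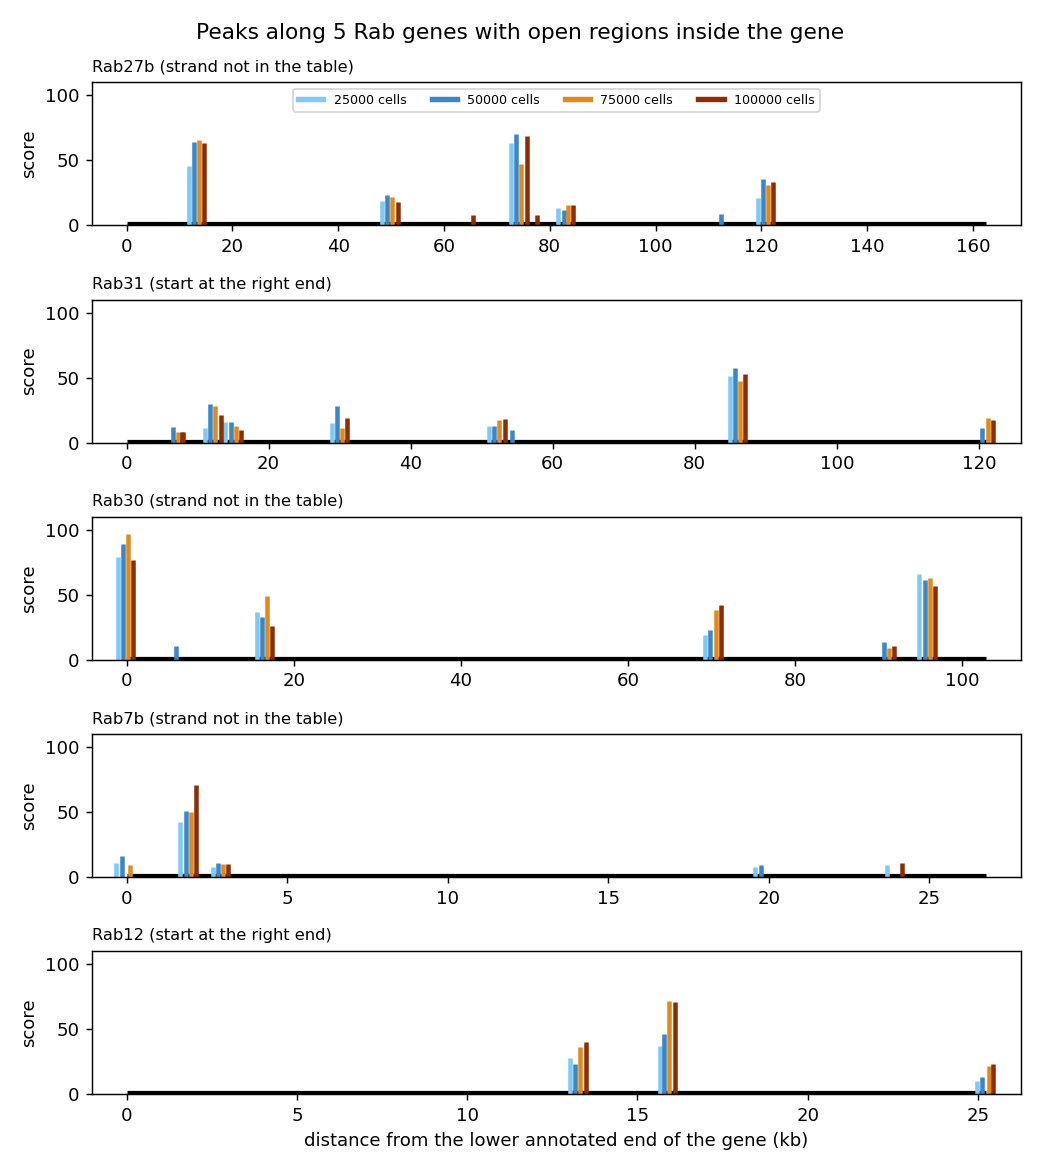
Peaks along Rab27b, Rab31, Rab30, Rab7b and Rab12, drawn as bars of height equal to the score at their distance in kb from the lower annotated end, with colours for the libraries, shifted slightly so that they can be told apart. Rab27b has its 5 repeated regions inside the gene and none at either end.

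The share of Rab peaks found in all 3 other libraries was 80.0% (95% Clopper-Pearson interval 70.5 to 87.5) of 95 peaks at 25000 cells, 73.0% (63.2 to 81.4) of 100 at 50000, 80.4% (71.1 to 87.8) of 97 at 75000 and 71.8% (62.4 to 80.0) of 110 at 100000. For all peaks of the lists the shares were 72.5%, 63.7%, 67.5% and 61.2%. The lists also hold peaks away from genes, whereas Rab peaks lie in or near a gene by the rule, so these shares are not of like peaks. The intervals cover counting error only. They treat each peak as independent, although several Rab peaks can lie in the same gene, and were not used as a test. Rab peaks near starts were shared in 94.4%, 82.1%, 81.8% and 83.7% of cases, beside 90.1%, 84.6%, 85.5% and 81.9% for all peaks near starts of protein-coding genes. Rab peaks inside genes were shared in 68.1%, 63.3%, 78.0% and 62.7%. For all peaks in or near protein-coding genes but not near a start, outer ends included, the shares were 67.6%, 58.7%, 63.0% and 56.4%.

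Rab starts with a peak had a higher median CpG count than those without. In the 300 bases from 250 before to 50 after the first listed start, the median CpG count was 25 for the 32 Rab genes whose start was open in every library and 9.5 for the 12 with none. Over all protein-coding genes the medians were 23 and 4. The ranges overlapped, from 9 at Rab9 to 43 at Rab10 and Rab35 among the former and from 5 at Rab17 to 38 at Rab15 among the latter. GC content had medians of 63.3% and 56.5%.

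Exceptions were found on both sides of the CpG scale. Of 36 Rab starts with at least 13 CpG, the median of all protein-coding starts, 29 had a peak in all 4 libraries (80.6%, against 74.0% of all protein-coding starts at or above that count). The 3 with no peak in any were Rab15 with 38 CpG, Rab39 with 27 and Rab9b with 17, and Rab6b with 42 had only its peak of 8 at 50000 cells. Of 12 Rab starts below 13 CpG, 3 had a peak in all 4 libraries (background 13.8%), namely Rab9 with 9, Rab11b with 12 and Rab29 with 12. DNA methylation was not measured.

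**Figure D4:**
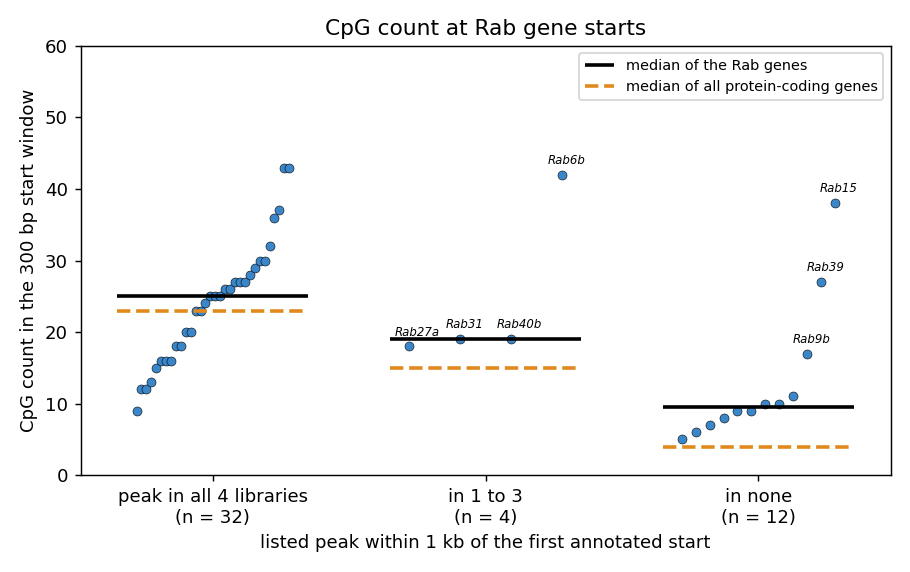
CpG count in the 300 bp window at the first listed start of 48 Rab genes, by the number of libraries with a peak within 1 kb of it; each point is a gene, black lines are Rab medians and dashed lines the medians of all protein-coding genes. Rab6b (42), Rab15 (38) and Rab39 (27) lie above the Rab median of 25 for starts with a peak in all 4 libraries.

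A search of the same windows, on both strands, for 13 short motifs gave counts for description only. The GC box GGGCGG was present at 24 of 32 Rab starts with a peak in all 4 libraries and 6 of 12 with none, against 46.3% of all protein-coding starts, 70.3% of those with a peak in all 4 and 23.4% of those with none. The E-box TCACGTGA, the core of the element read by TFEB in lysosomal genes, was present at Rab5a, Rab21 and Rab24 (6.25% of the 48 Rab starts, against 1.25% of all). Among starts with a peak in all 4 libraries the shares were 9.38% and 2.21%. The YY1-type motif AAGATGGC was present at Rab7, Rab13, Rab22a and Rab28 (8.33%, against 3.22%), with 12.5% and 5.30% among starts with a peak in all 4 libraries. TATAAA was present at Rab7, Rab3b, Rab39b and Rab42 (8.33%, against 13.3%), and the latter 3 had no start peak. TCACGTGA contains the shorter motif CACGTG, which was found at 10.4% of Rab starts and 7.90% of all. The remaining motifs lay on both sides of the share of all starts. CCAAT was found at 47.9% of Rab starts against 39.0%, TEAD at 14.6% against 13.4%, CRE at 4.17% against 2.34% and NRF1 at 4.17% against 3.60%. ETS was found at 4.17% against 5.29%, AP-1 at 4.17% against 7.08%, RUNX at 4.17% against 4.84% and Grainyhead at no Rab start against 0.177%.

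Genes that act on Rab proteins were counted in the same way. Of 125 such genes matched by symbol out of 126 listed, 114 had a peak in or near the gene in all 4 libraries, 7 in some and 4 in none. The share of all protein-coding genes with a peak in all 4 is the 54.5% given above. Within 1 kb of an annotated end, 91 of the 125 had a peak in all 4 libraries, against 43.9% of protein-coding genes. Near a start, 87 of the 109 with a known start had one, against 45.9%. Gene length and peaks nearer to another gene were not examined for this set. Of 35 GTPase-activating protein genes 34 were open in all 4 libraries, led by Evi5l (105, 177, 114 and 128), Tbc1d10b (57, 92, 89 and 93) and Tbc1d10c (70, 77, 49 and 88), and Tbc1d9 had peaks in 3. Of 36 exchange factor genes 34 were open in all 4 libraries, led by Rin1, an activator of Rab5 (81, 80, 114 and 115), Dennd3 (79, 97, 95 and 70) and Mon1b, part of the activator of Rab7 (53, 81, 83 and 85), and Dennd1c had no listed peak. Both subunit genes of the geranylgeranyl transferase, Rabggta (20, 33, 16 and 24) and Rabggtb (14, 29, 23 and 44), were open.

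Of 48 effector genes 42 were open in all 4 libraries, led by Ehbp1 (69, 79, 70 and 77), Myo5c (70, 84, 57 and 79) and Lrrk1 (48, 71, 67 and 77), and Sytl1 and Sytl4, which encode synaptotagmin-like partners of Rab27 proteins, had no listed peak. Gdi2, which encodes an inhibitor that extracts Rab proteins from membranes, was open in all 4 libraries at 37, 35, 31 and 21. Of the escort protein genes, Chm had peaks of 8 and 14 at 25000 and 50000 cells only, and Chml had none.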

How the data were processed

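Per the submitters' processing notes, bedtools 2.17.0, Picard 1.107, SAMtools, Bowtie 0.12.8 and cutadapt were used on builds hg19 and mm10, of which mm10 is the mouse one. The authors deposited 1 peak list per library with a whole-number score per peak; the sources used here do not say how it was computed, with which settings or with what Tn5 shift.

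Gene extents and starts came from RefSeq tables of GRCm38.p6, the assembly of mm10, with starts for 48 of 59 members. A peak counted for a gene when it overlapped by at least 1 bp the gene or the 1000 bp around it, either end, or a start. Score percentiles are within a list, ties at their midpoint. Compartments were assigned by hand from general knowledge, 1 per gene. All members were named, with scores in full for up to 4 per compartment, for genes open in some libraries and for differing relatives; scores of other members were added after their values were seen. Members and lists were chosen with earlier results of these data known. The overlap search was checked on 200 planted peaks and 200 genes searched exhaustively. Alternatives were stricter scores, equal list sizes, peak centres, other windows, autosomes, merged or reciprocal overlaps and leaving out each library. Python 3.11.15, pandas 2.3.3 and scipy 1.17.1 were used.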

Additional observations from a re-analysis of the deposited data

How the results depend on the processing

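The number of Rab genes with a peak in or near the gene in all 4 libraries was 43 when peaks under their list's median score were dropped. It was 46 on autosomes only, where the X-linked members are left out of the count, and between 47 and 50 under the other alternatives. With the median score as minimum the share was 72.9%, against 42.0% of all protein-coding genes, a background added after seeing the data. Rab28 and Rab35 fell to 3 libraries, Rab2a and Rab36 to 2 and Rab27a to 1. Leaving out each library gave 48 to 50 genes open in or near the gene, 40 to 42 at an end, 32 to 34 at a start, 5 to 6 with no peak and 114 to 116 of the genes acting on Rab proteins. The number with no peak rose from 5 to 10 with the score minimum (16.9%, against 44.4% of all protein-coding genes). Sharing of Rab peaks rose with it to 98.3%, 94.0%, 95.6% and 91.8% from 25000 to 100000 cells. With every member that had a peak in a library, the median highest score was 35, 42, 44 and 40. The median score percentile of 86.6, 88.3, 89.3 and 87.4 became 67.1, 67.6, 71.1 and 64.7 when set against the highest peaks of protein-coding genes alone, a smaller and higher reference. Depth is unknown and limits all absences. No paired analysis was possible because each cell number has 1 library.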
